A study of Mus musculus with 14 samples.

Results

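The 10 genes Mpo, Elane, Prtn3, Ctsg, Ms4a3, Prss57, Fcnb, Srgn, Serpinb1a and Nkg7 were taken as genes of the promyelocyte, the cell that builds the primary granule, the first granule of a developing neutrophil. Not all of them encode granule contents, and what each is known for is given with its values. They were chosen by symbol as 10 of the 55367 gene symbols in the deposited tables, and all 10 were tested in both experiments. The cells were primary lineage-negative cells of mouse bone marrow, labelled wild-type and grown in IMDM with 15% FBS and the cytokines SCF, IL6 and IL3. For the first experiment they carried a pSMAL lentiviral vector for luciferase (3 libraries) or for SETBP1-D868N (3 libraries), a mutant form of the nuclear protein SETBP1. In the second experiment all cells carried SETBP1-D868N and were kept for 4 days with DMSO (4 libraries) or with 2.5 µM PF-9363 (4 libraries), an inhibitor of MYST histone acetyltransferases. No library of the second experiment lacked SETBP1-D868N, so PF-9363 was compared only within cells carrying the mutant. The labels give neither the animals behind the cells nor their age or strain, and they do not say whether replicates were separate cultures, so p-values measure only the spread between these libraries, which may be technical.

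The primary or azurophil granule is filled at the promyelocyte stage, when the granulocyte progenitor makes myeloperoxidase and a family of serine proteases in large amounts. These proteases are made as inactive precursors, trimmed by the dipeptidyl peptidase Ctsc, packed on the proteoglycan serglycin (Srgn), and held in check in the cytosol by the inhibitor Serpinb1a. Their transcription is known to depend on the factors PU.1, C/EBP, Myb and RUNX1, and it is shut down once the cell goes on to make secondary granules.

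The libraries held 60147266 to 68730322 counts each in experiment 1 and 7083731 to 10359093 counts each in experiment 2. Levels are library-size-normalised counts (CPM) scaled with the TMM method. Means are printed with their SD, over n = 3 libraries per group when SETBP1-D868N is compared with luciferase and n = 4 when PF-9363 is compared with DMSO. Mouse Setbp1 had 5 to 6 counts per luciferase library, 20 to 24 per SETBP1-D868N library and 0 to 2 in the second experiment. Whether reads from the vector enter these counts was not tested, so they do not measure the SETBP1-D868N that the cells carried. In these bulk libraries, fewer cells of a type and less RNA per cell cannot be told apart. Stem and progenitor markers such as Kit and Cd34 were present in both experiments. The summed level of the T and NK cell markers stayed between 1.22 and 12.3 CPM and that of the B cell markers between 0.309 and 10.3 CPM. Markers of mast cells and basophils, and of monocytes and macrophages, were abundant, and their values stand beside the gene groups below.

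The genes lie on 7 chromosomes of the mouse build GRCm38, in GENCODE M21. Prss57 (chr10:79781474-79790961, minus strand), Prtn3 (chr10:79874476-79883174, plus) and Elane (chr10:79886247-79888215, plus) stand close together, and Srgn (chr10:62493833-62527451, minus) lies elsewhere on chromosome 10. Mpo is at chr11:87793581-87804413 (plus), Ctsg at chr14:56099881-56102574 (minus), Ms4a3 at chr19:11629496-11640851 (minus) and Fcnb at chr2:28076378-28084885 (minus). Serpinb1a is at chr13:32842092-32851185 (minus) and Nkg7 at chr7:43437073-43438249 (plus).

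RefSeq promoter windows of GRCm38.p6, from 250 bases before to 50 bases after a start site, were found for 8 of the 10 genes. Prss57 and Serpinb1a had no entry. The 4 windows below are those of the peroxidase and of the 3 serine proteases with an entry. They are written 5′ to 3′ on the gene's own strand, in lower case with the letters of a searched motif in capitals. The motifs were GAGGAAG for PU.1, AACGG for Myb, TGTGGT for RUNX (ACCACA when read on the other strand) and TTNNGNAA for C/EBP, searched on both strands. The windows are chr11:87793534-87793833 (plus) for Mpo, chr10:79886062-79886361 (plus) for Elane, chr10:79879417-79879716 (plus) for Prtn3 and chr14:56102525-56102824 (minus) for Ctsg.
Mpo: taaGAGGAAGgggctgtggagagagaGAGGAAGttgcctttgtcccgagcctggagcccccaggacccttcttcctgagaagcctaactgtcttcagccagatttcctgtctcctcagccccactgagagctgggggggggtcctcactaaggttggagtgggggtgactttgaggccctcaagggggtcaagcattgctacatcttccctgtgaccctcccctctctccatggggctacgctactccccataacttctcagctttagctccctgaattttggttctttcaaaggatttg
Elane: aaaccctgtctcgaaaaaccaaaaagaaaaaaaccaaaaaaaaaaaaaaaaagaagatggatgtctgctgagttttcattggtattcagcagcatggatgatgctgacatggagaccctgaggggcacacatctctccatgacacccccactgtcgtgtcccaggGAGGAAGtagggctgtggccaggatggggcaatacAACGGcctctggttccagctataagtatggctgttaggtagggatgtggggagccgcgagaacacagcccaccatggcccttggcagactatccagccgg
Prtn3: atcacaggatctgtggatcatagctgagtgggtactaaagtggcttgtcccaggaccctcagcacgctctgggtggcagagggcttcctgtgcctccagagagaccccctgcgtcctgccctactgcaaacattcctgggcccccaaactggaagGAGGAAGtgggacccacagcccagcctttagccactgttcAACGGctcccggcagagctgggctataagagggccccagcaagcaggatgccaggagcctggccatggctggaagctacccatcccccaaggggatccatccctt
Ctsg: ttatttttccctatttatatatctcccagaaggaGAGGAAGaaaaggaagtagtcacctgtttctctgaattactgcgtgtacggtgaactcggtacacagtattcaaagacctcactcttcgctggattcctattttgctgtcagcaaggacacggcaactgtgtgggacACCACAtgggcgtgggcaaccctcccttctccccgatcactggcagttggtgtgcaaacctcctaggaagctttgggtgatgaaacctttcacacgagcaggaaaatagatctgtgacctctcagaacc

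All 4 windows held the PU.1 letters, which 13.63% of the 32851 windows in the RefSeq table also hold, and the windows of the other 4 genes did not. They began at −85 in Elane, −95 in Prtn3, −216 in Ctsg, and −247 and −224 in Mpo, counted from the start site. The Elane and Prtn3 windows also shared the Myb letters at −50 and −55, found in 17.45% of all windows. None of the 4 held the C/EBP letters, which occurred in 40.68% of all windows and, among the 10 genes, in the windows of Ms4a3, Fcnb and Srgn. The RUNX letters, in 16.76% of all windows, occurred in those of Ctsg, Srgn and Nkg7. A match describes the letters of the window and does not show that a factor binds there. With PF-9363, Fcnb, without the PU.1 letters, was 197-fold lower and Ctsg, with them, was 3.10-fold lower. A link between the letters and the changes in level was not tested.

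The first comparison asked how these genes differed in cells carrying SETBP1-D868N. Of the 10 genes, 8 were higher and 1 was lower than with luciferase by edgeR's quasi-likelihood test at an adjusted p under 0.05. Over all 15794 genes tested, 24.5% were called higher and 22.7% lower, together 47.2%. The groups did not overlap in 9 of the 10 genes, beside 56.7% of all genes. The changes were small: none of the 10 was at least 2-fold higher, where 1.34% of all genes were, and their median log2 fold change was 0.31 beside 0.00 over all genes tested. Fcnb moved against the others, and Serpinb1a did not pass the test.

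Mpo encodes myeloperoxidase, the heme enzyme that makes hypochlorous acid. Its level was 2667, 2848 and 2767 CPM in luciferase libraries 1 to 3 and 3639.7, 3625 and 3664 CPM in SETBP1-D868N libraries 1 to 3. The 3 mutant libraries lay close together and above all 3 controls (log2 fold change 0.40, SE 0.027, edgeR adjusted p 3.07e-07).

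The 4 serine proteases rose as well. Ctsg, cathepsin G with chymotrypsin-like activity, was at 610.4, 621 and 619 CPM with luciferase and at 958, 934 and 910.2 CPM with SETBP1-D868N. It had the largest rise of the 10, with a log2 fold change of 0.60 (edgeR adjusted p 1.25e-08, SE 0.025). Elane, neutrophil elastase, was at 683, 750.4 and 759 CPM and at 917, 953 and 895 CPM (log2 fold change 0.34, SE 0.042, edgeR adjusted p 1.38e-04). In both genes the groups did not overlap. Prtn3, proteinase 3, went from 529 ± 24.6 to 645 ± 25.0 CPM (log2 fold change 0.29, SE 0.038, edgeR adjusted p 1.39e-04). Prss57, a serine protease that cuts after arginine, went from 61.9 ± 2.32 to 67.1 ± 1.18 CPM (log2 fold change 0.12, SE 0.034, edgeR adjusted p 0.0141). That call was lost without luciferase library 1 (edgeR adjusted p 0.0557) and without SETBP1-D868N library 2 (edgeR adjusted p 0.06).

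Counts of 2 genes in a library were also set against each other. Ctsg counts stood at 0.816 to 0.894 of Elane counts with luciferase and at 0.980 to 1.04 with SETBP1-D868N, so the groups did not overlap in this ratio. The ratio of Prtn3 to Elane counts, 0.717 to 0.734 with luciferase and 0.665 to 0.734 with SETBP1-D868N, did overlap.

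Among the other genes, Srgn, whose glycosaminoglycan chains bind the proteases, rose from 1413 ± 26.2 to 1676 ± 41.5 CPM (log2 fold change 0.25, SE 0.026, edgeR adjusted p 1.09e-05). Ms4a3, a four-span membrane protein of granulocyte-monocyte progenitors, rose from 312 ± 5.10 to 394 ± 6.92 CPM (log2 fold change 0.34, SE 0.025, edgeR adjusted p 6.44e-07). Nkg7, a membrane protein of cytotoxic granules that myeloid progenitors also express, rose from 58.1 ± 1.98 to 80.2 ± 2.77 CPM (log2 fold change 0.47, SE 0.036, edgeR adjusted p 8.67e-07). In each of these 3 genes every SETBP1-D868N library lay above every luciferase library.

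Fcnb encodes ficolin B, a lectin that recognises sugars on microbes. It was at 59.2, 67.5 and 68.1 CPM with luciferase and at 40.2, 41.9 and 32.2 CPM with SETBP1-D868N. All 3 mutant libraries were below all controls, and the log2 fold change was −0.77 (edgeR adjusted p 0.00539, SE 0.12). Serpinb1a, the inhibitor of elastase, proteinase 3 and cathepsin G, was at 518, 571 and 586 CPM and at 567, 457 and 479.9 CPM. SETBP1-D868N library 1 lay inside the luciferase range, and the log2 fold change of −0.16 (edgeR adjusted p 0.29, SE 0.10) did not pass the test. Without that library it was −0.26 with an edgeR adjusted p of 0.00924, and with DESeq2 on all libraries it was −0.16 with an adjusted p of 0.0430. Serpinb1a has the near copies Serpinb1b and Serpinb1c, and how reads shared between such copies were counted is not given in the sources used here. Counts of Serpinb1a over the summed counts of Elane, Prtn3 and Ctsg were 0.289 to 0.305 with luciferase and 0.181 to 0.223 with SETBP1-D868N, without overlap.

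**Figure D1:**
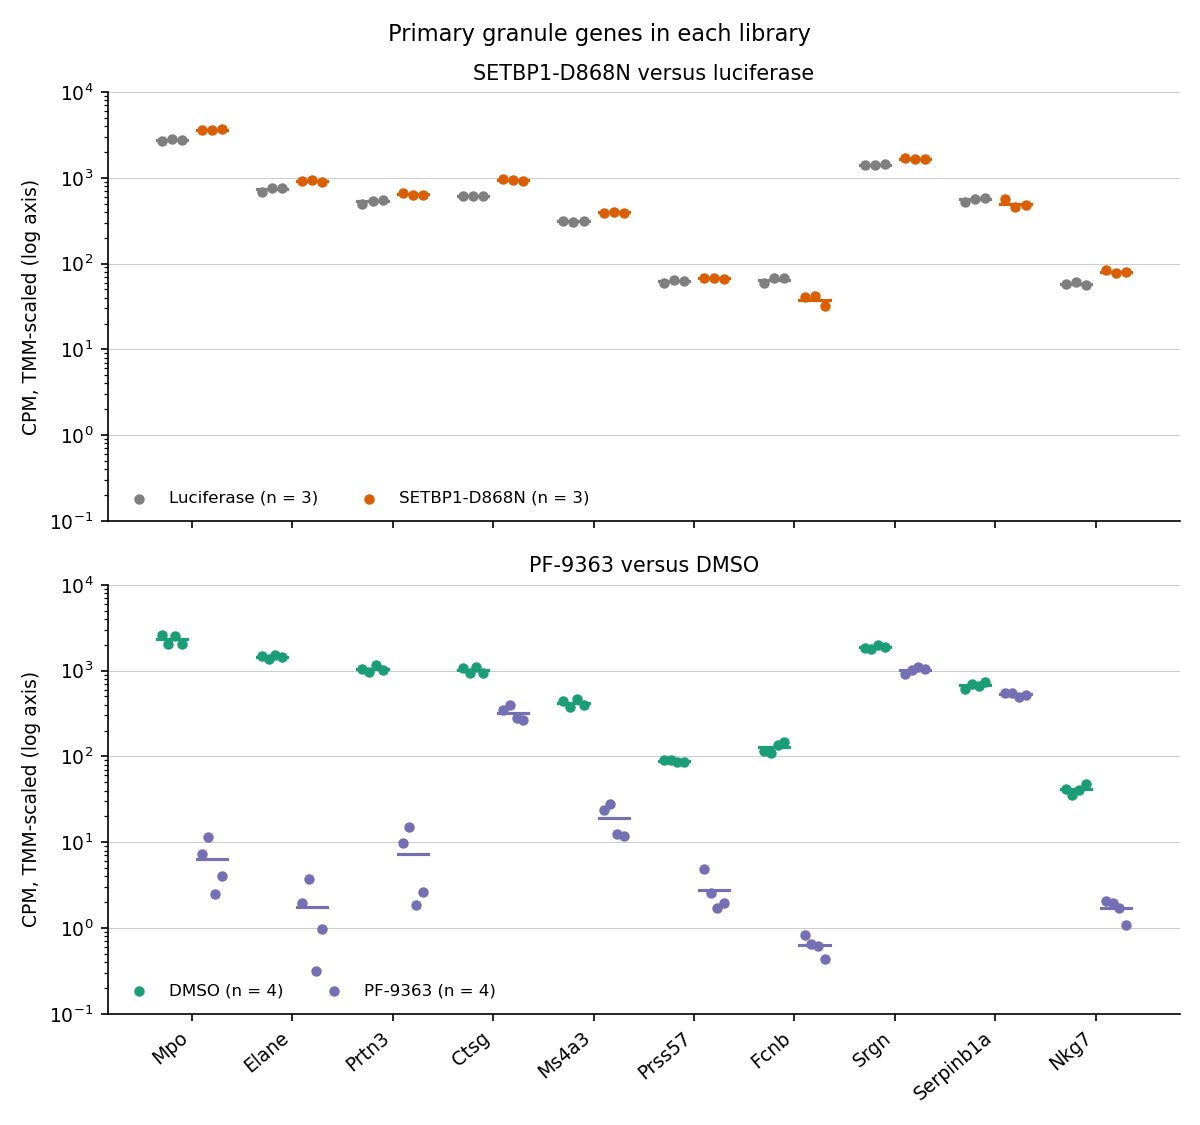
Level of each of the 10 genes in every library (points, TMM-scaled CPM on a log axis) with the group mean (bar), for luciferase and SETBP1-D868N above and DMSO and PF-9363 below. The upper groups lie close together, from 32.2 CPM (Fcnb) to 3664 CPM (Mpo), while the PF-9363 libraries reach down to 0.311 CPM for Elane.

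The second comparison asked what inhibition of MYST acetyltransferases did to these genes in cells carrying SETBP1-D868N. All 10 fell and none rose. Of the 13456 genes tested 39.4% were called lower and 36.6% higher, together 76.0%. In all 10 the 4 PF-9363 libraries lay below the 4 DMSO libraries, and groups did not overlap in 70.3% of all genes. The median log2 fold change of the 10 was −4.77, beside −0.04 over all genes tested. At least 16-fold falls were found in 7 of the 10 and in 1.05% of all genes. The size of the fall spread the genes into a group that nearly vanished (Elane, Mpo, Fcnb, Prtn3), a group between 22.1-fold and 30.5-fold lower (Prss57, Nkg7, Ms4a3) and 3 genes that stayed abundant (Ctsg, Srgn, Serpinb1a).

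Elane was at 1481, 1354, 1519 and 1457 CPM in DMSO libraries 1 to 4 and at 1.96, 3.74, 0.311 and 0.976 CPM in PF-9363 libraries 1 to 4. Those PF-9363 values rest on 19, 29, 2 and 9 counts. The level was 809.98-fold lower, rank 2 from the lowest fold change among the 13456 genes tested. Its sister gene Prtn3 was at 1048, 969, 1174 and 1023 CPM with DMSO and at 9.68, 15.1, 1.87 and 2.60 CPM with PF-9363. That is a log2 fold change of −7.14 (edgeR adjusted p 5.65e-06, SE 0.44).

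Mpo was at 2599.7, 2055, 2568 and 2058 CPM with DMSO and at 7.31, 11.6, 2.49 and 4.01 CPM with PF-9363, which is 359-fold lower and rank 5 from the lowest fold change. Fcnb, at 115, 111, 136 and 147 CPM with DMSO, had 8, 5, 4 and 4 counts in PF-9363 libraries 1 to 4. Its log2 fold change was −7.62 (edgeR adjusted p 5.09e-24, SE 0.16), and at such counts this SE may be too small. Fcnb was thus lower in both comparisons, while Mpo, Elane and Prtn3 rose in the first and fell in the second.

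The Mpo exons share 512 bp with Gm11505, an antisense gene whose exons cover 737 bp. How the counting treated strand is not given in the sources used here. Gm11505 held 39 to 85 counts in each luciferase and SETBP1-D868N library, 0.0165% to 0.0356% of the Mpo counts. In the DMSO libraries it held 10618 to 13773 counts, 48.0% to 51.5% of the Mpo counts, and its log2 fold change with PF-9363 was −8.51 (edgeR adjusted p 3.56e-07, SE 0.33) beside −8.49 (SE 0.34, edgeR adjusted p 4.05e-07) for Mpo. Without strand information reads of the 2 genes cannot be told apart, so the level of Mpo in the second experiment is uncertain, and what sets this difference between the experiments was not tested. Fstl3, which shares 1157 bp of exon with Prss57 on the opposite strand, held 4.05% to 6.09% of the Prss57 counts in experiment 1 and 21.6% to 28.5% in the DMSO libraries. Plppr3, which shares 159 bp with Prtn3, held 13.4% to 14.6% of the Prtn3 counts in experiment 1 and 16.1% to 17.8% in the DMSO libraries. In the PF-9363 libraries, where Mpo, Prss57 and Prtn3 were low, Gm11505 held 24.3% to 106% of the Mpo counts, Fstl3 44.7% to 127% of the Prss57 counts and Plppr3 186% to 1475% of the Prtn3 counts. Plppr3 had 177 to 277 counts per PF-9363 library, beside 12 to 117 counts of Prtn3.

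Prss57 went from 88.2 ± 2.89 to 2.77 ± 1.43 CPM (log2 fold change −4.93, SE 0.16, edgeR adjusted p 7.14e-17). Nkg7 went from 41.6 ± 5.11 to 1.70 ± 0.433 CPM (log2 fold change −4.61, SE 0.17, edgeR adjusted p 5.94e-20). Ms4a3 was at 443.7, 376, 471 and 403 CPM with DMSO and at 23.5, 28.1, 12.5 and 11.9 CPM with PF-9363 (log2 fold change −4.47, SE 0.27, edgeR adjusted p 4.79e-06). These 3 genes kept 11 counts or more in every PF-9363 library, apart from Nkg7 in library 4 with 10.

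Ctsg fell less than the other proteases. It was at 1060.5, 946, 1092 and 938 CPM with DMSO and at 351, 398, 282 and 269 CPM with PF-9363, or 3.10-fold lower (log2 fold change −1.63, SE 0.12, edgeR adjusted p 7.31e-07). The 95% interval of its log2 fold change, −1.94 to −1.33, did not meet that of Prss57, −5.32 to −4.54, the closest of the other 3 proteases. Both intervals are built from the SE, and that of Prss57, with few PF-9363 counts, may be too narrow. Ctsg counts were 0.644 to 0.719 of Elane counts in the DMSO libraries and 179, 106, 907 and 276 times Elane counts in PF-9363 libraries 1 to 4. The lowest PF-9363 ratio was far above the highest DMSO ratio, and the ratio of 907 rests on 2 counts of Elane. Prtn3 counts changed less against Elane, from 0.702 to 0.773 with DMSO to 2.67 to 6.00 with PF-9363.

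Srgn was at 1842, 1793, 1983 and 1879 CPM with DMSO and at 913, 1010.2, 1109 and 1058 CPM with PF-9363 (log2 fold change −0.87, SE 0.065, edgeR adjusted p 6.74e-13). Serglycin is also made by mast cells and monocytes, whose markers are given below. Which cells held the remaining Srgn, Ctsg and Serpinb1a counts cannot be told in these bulk libraries. Serpinb1a was at 611, 690.2, 660.3 and 732 CPM with DMSO and at 545, 556, 495 and 522 CPM with PF-9363. It had the smallest fall of the 10, with a log2 fold change of −0.35 (edgeR adjusted p 1.45e-05, SE 0.063), which became −0.58 with scaling by library size alone. Serpinb1a counts over the summed counts of Elane, Prtn3 and Ctsg went from 0.170 to 0.214 with DMSO to 1.33 to 1.91 with PF-9363, without overlap.

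The PF-9363 libraries differed among themselves, and not only in the genes that fell most. In CPM, libraries 1 and 2 were above libraries 3 and 4 in every gene but Srgn, including Serpinb1a, which fell least. Relative to the group mean of 1.75 CPM, the SD of Elane was 1.49 CPM, and that of Prtn3 was 6.27 CPM around 7.31 CPM. Srgn did not share this order, with its lowest level in PF-9363 library 1. Over the 13 alternatives run, which include leaving out each library, the log2 fold change of Elane ranged from −10.24 to −9.39 and that of Mpo from −8.89 to −8.27.

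**Figure D2:**
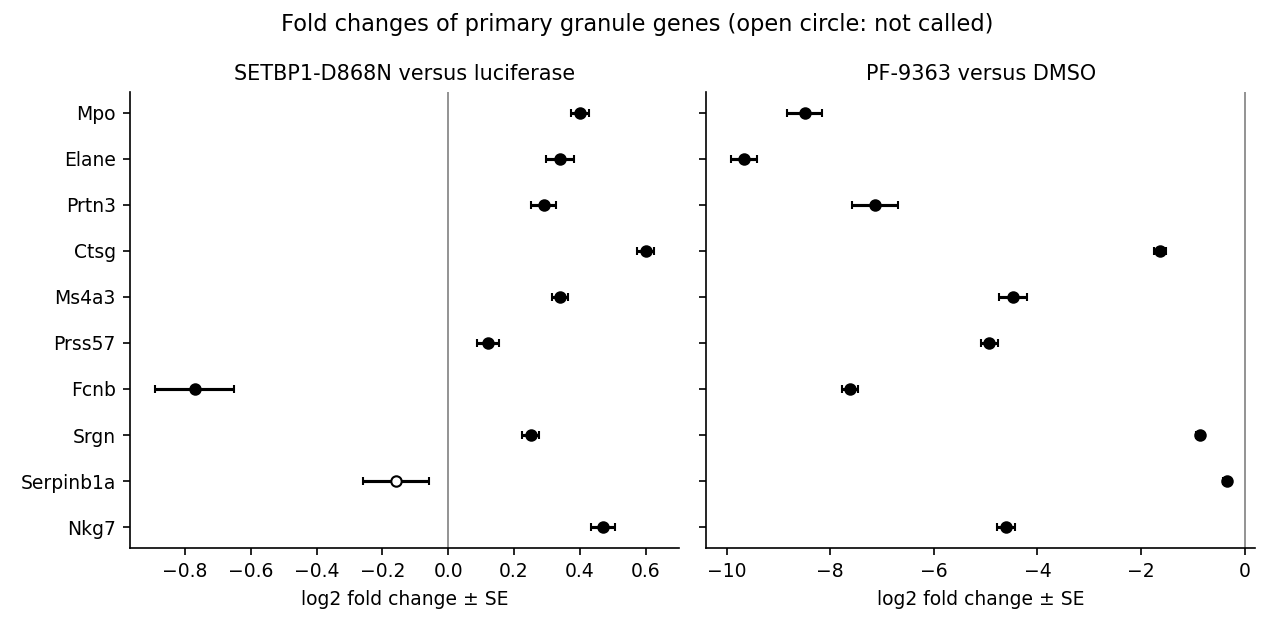
Log2 fold change of each gene with its SE, for SETBP1-D868N versus luciferase (left) and PF-9363 versus DMSO (right). The open circle did not pass the test and the x axes differ. The SE may be too small for genes with few PF-9363 counts. On the left the values run from −0.77 (Fcnb) to 0.60 (Ctsg), and on the right from −9.66 (Elane) to −0.35 (Serpinb1a).

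Per kilobase of exon (RPKM, TMM-scaled CPM divided by exon length), the order of the 10 genes with luciferase was Mpo (806), Elane (743), Srgn (643), Ctsg (597), Prtn3 (305), Serpinb1a (243), Ms4a3 (165), Nkg7 (63.5), Fcnb (48.5) and Prss57 (21.8). No neighbours in that order overlapped between libraries. The length joins the exons of all annotated transcripts of a gene. A gene expressed mainly from a shorter transcript, as may hold for Prtn3 and Prss57, is therefore placed too low. With SETBP1-D868N, Ctsg at 904 RPKM moved ahead of Srgn at 763 RPKM and overlapped Elane at 937 RPKM, and Serpinb1a at 218 RPKM overlapped Ms4a3 at 209 RPKM. With DMSO, Elane led at 1477 RPKM, followed by Ctsg (977), Srgn (853), Mpo (678) and Prtn3 (608), where Mpo and Prtn3 overlapped. The place of Mpo there carries the uncertainty over Gm11505 given above. With PF-9363, Srgn (466 RPKM), Ctsg (315 RPKM) and Serpinb1a (229.9 RPKM) stood apart in that order, and the next was Ms4a3 at 10.1 RPKM. From Ms4a3 down, every gene overlapped its neighbour, with Fcnb lowest at 0.471 RPKM.

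As a share of all counts, which does not depend on the scaling, the 10 genes held 0.671%, 0.711% and 0.712% in the luciferase libraries and 0.921%, 0.903% and 0.891% in the SETBP1-D868N libraries. The difference of 0.207 percentage points had a two-sided exact permutation p of 0.1, the smallest that 3 against 3 libraries allow. They held 1.01%, 0.918%, 1.05% and 0.936% in the DMSO libraries and 0.174%, 0.190%, 0.173% and 0.169% in the PF-9363 libraries. That difference of −0.803 percentage points had an exact permutation p of 0.0286, the smallest possible with 4 against 4. Srgn alone held 0.0855% to 0.101% of the counts in the PF-9363 libraries.

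The 12 factors listed as regulators of primary granule genes moved in both directions. The list also holds Klf4 and Gata2, better known as factors of other cells. In the first comparison 5 of 12 rose, 6 fell and 1 did not pass the test. Myb, a progenitor transcription factor, rose from 196 ± 5.57 to 347 ± 13.9 CPM (log2 fold change 0.82). Cebpa, needed to form granulocyte-monocyte progenitors, rose from 258 ± 1.42 to 369 ± 14.8 CPM (0.52), and Gfi1 (0.31), Gata2 (0.21) and Cbfb (0.09) rose as well. Klf4 (−0.38), Cebpe (−0.33), Cebpd (−0.32), Irf8 (−0.29), Spi1 (−0.27), which encodes PU.1, and Cebpb (−0.16) fell, and Runx1 had −0.01. In the second comparison 6 rose, 4 fell and 2 did not pass. Myb fell from 314 ± 17.8 to 47.7 ± 14.5 CPM (−2.71), and Gfi1, a repressor needed for neutrophil formation, fell from 143 ± 6.45 to 29.7 ± 7.88 CPM (−2.26). Cebpe (−1.29) and Cebpa (−0.52) also fell. Klf4, a monocyte factor, rose from 5.98 ± 0.998 to 74.1 ± 13.3 CPM (3.62) and Gata2, a factor of stem and mast cells, from 56.1 ± 3.55 to 297 ± 24.7 CPM (2.40). Irf8 (1.04), Spi1 (0.67), Cebpb (0.53) and Runx1 (0.25) rose, while Cebpd had −0.05 and Cbfb 0.00. Myb, Gfi1 and Cebpe, and also Plac8 and Arsb, which are not on this list, had their 2 highest PF-9363 counts in libraries 1 and 2. These are raw counts, and the libraries differ in depth. A link between the regulators and the granule genes was not tested.

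Genes listed under protease activation and granule traffic moved in both directions. The list is broad, and some of its genes, such as G6pc3 and Hax1, neither activate nor move granule proteins. In the list of protease activation and granule traffic, 5 of 12 rose and 3 fell in the first comparison (median log2 fold change 0.01), led by G6pc3 (0.40) and Jagn1 (0.25) up and Lyst (−1.02) and Ap3b1 (−0.15) down. In the second comparison 6 rose and 3 fell (median 0.07). Ctsc, which activates the serine proteases, rose from 260.1 ± 6.59 to 577 ± 23.3 CPM (log2 fold change 1.15), and Cd63, a granule membrane protein, rose by 1.38. Rab27a, a GTPase of granule release, had −0.78 and G6pc3 had −0.44. Of 12 other lysosomal and azurophil contents, 2 rose and 7 fell in the first comparison (median −0.24), with Gaa at 0.25 and Gusb at 0.18, both lysosomal glycosidases, and Cd68, a membrane protein of macrophage lysosomes, at −0.62. In the second 11 rose and 1 fell (median 1.08), with Ctsb at 2.96 and Ctsd at 2.54, both lysosomal proteases, and Arsb, a lysosomal sulfatase, at −2.75. Lyz2, lysozyme of neutrophils and macrophages, fell from 1729.6 ± 87.1 to 1092 ± 115 CPM in the first comparison (−0.66) and rose from 1295 ± 82.1 to 6799.6 ± 586 CPM with PF-9363 (2.39).

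Protease inhibitors other than Serpinb1a had 3 of 11 tested genes higher and 8 lower in the first comparison (median −0.49; Serpina3g 0.40, Serpina3f 0.36, Serpinb6b −0.98, Serpinb2 −0.86). In the second, 8 of 11 were higher and none was lower (median 0.86; Serpinb8 3.39, Serpinb2 2.85). Of 2 heme peroxidases tested in the first comparison neither was called. Epx, the eosinophil peroxidase, whose gene lies near Mpo, fell from 186 ± 35.7 to 32.8 ± 5.24 CPM with PF-9363 (−2.50). Among granzymes and mast cell proteases, relatives of the granule proteases, 4 of 12 rose and 5 fell in the first comparison (median −0.02; Prss34 1.00, Gzmb 0.65, Tpsab1 −2.03, Tpsb2 −1.86). With PF-9363, 8 of 9 rose and none fell (median 1.90; Tpsab1 3.79, Tpsb2 2.28), and 1 fell without DMSO library 1. Genes of these protease and serpin families are similar in sequence, and reads shared between them may have been split.

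Genes of the next granule stage are made once the promyelocyte matures. The list of secondary and tertiary granule genes also holds neutrophil genes that do not encode granule contents, such as Cxcr2 and Padi4. All 16 of its genes fell in the first comparison (median −0.67), with Retnlg at −1.29 and Mmp9 at −0.87. With PF-9363, 9 rose and 1 fell (median 0.34), with Lcn2 rising from 478 ± 31.0 to 2732 ± 176 CPM (2.51), Mmp9 by 2.33 and Camp, a cathelicidin, at −2.15. The count lower was 5 with scaling by library size alone and 2 without DMSO library 2. Other genes of granulocyte-monocyte progenitors and promyelocytes were mixed: 3 of 15 rose and 8 fell in the first comparison (median −0.11; Cd34 0.27, Plac8 0.19, Kit −0.66, Mgst1 −0.63). In the second, 6 rose and 8 fell (median −0.34), with Csf3r at 2.00, Kit at 1.45, Rgcc at −3.80 and Plac8 at −3.31.

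**Figure D3:**
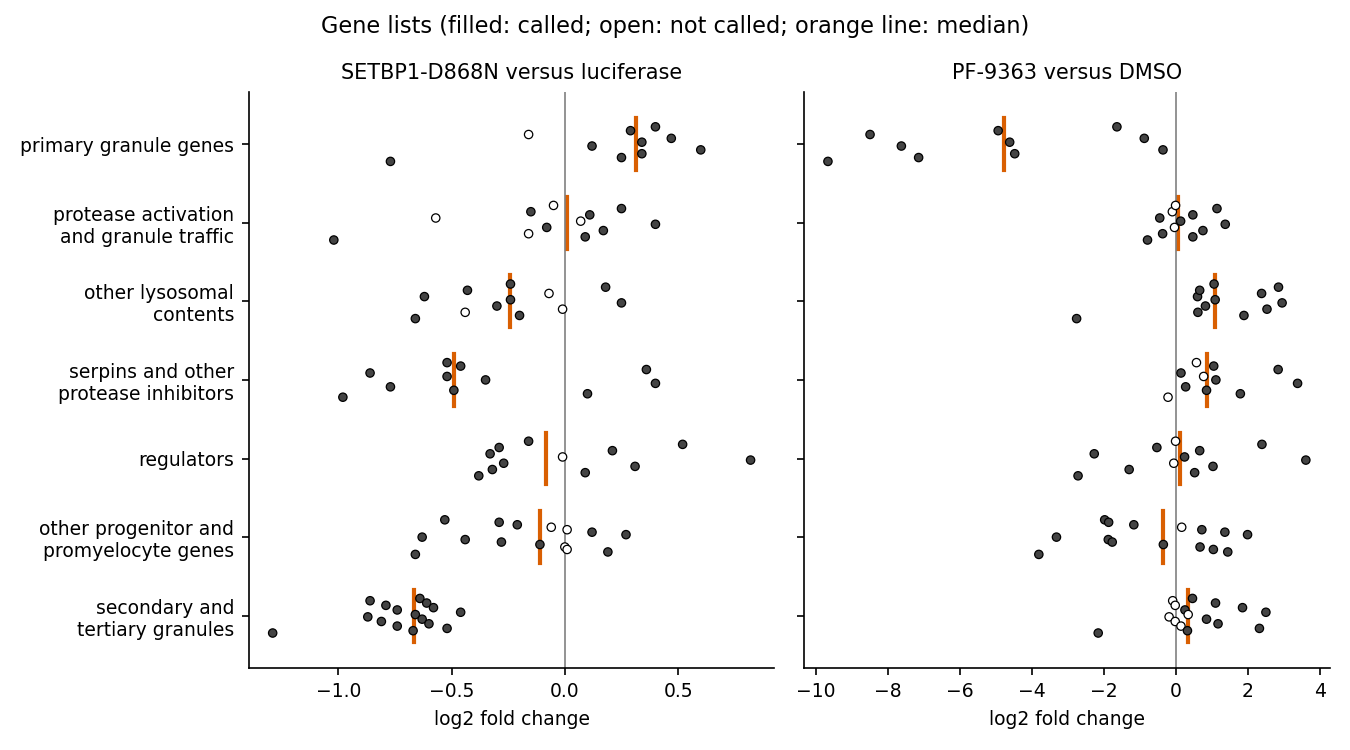
Log2 fold change of every tested gene in 7 lists (filled points passed the test, open points did not; orange line: median), for SETBP1-D868N versus luciferase on the left and PF-9363 versus DMSO on the right, with different x axes. The primary granule genes have medians of 0.31 and −4.77, and the secondary and tertiary granule genes −0.67 and 0.34.

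Markers of other blood cells moved beside these genes. In the first comparison 11 of 12 monocyte and macrophage markers fell, and their summed level was 1256 to 1269 CPM with luciferase and 878 to 926 CPM with SETBP1-D868N. The 12 mast cell and basophil markers, with 6 higher and 6 lower, summed to 6500.4 to 6766 and 6917 to 7029 CPM. Erythroid markers, with 4 of 7 tested genes higher and none lower, summed to 10.5 to 11.8 CPM with luciferase and 24.2 to 25.6 CPM with SETBP1-D868N. Of the 10 stem and progenitor markers 6 rose and 3 fell (1045 to 1077 and 1236 to 1279.9 CPM). Of the 9 eosinophil markers 4 fell and 1 rose (798 to 854 and 623 to 759 CPM), and of 5 tested megakaryocyte markers 3 fell and 1 rose (381 to 395 and 345 to 379 CPM). Of 6 tested T and NK cell markers 3 fell (11.8 to 12.3 and 7.35 to 7.60 CPM). In the second comparison 10 of 12 monocyte and macrophage markers rose and 1 fell, with sums of 1194 to 1342 CPM with DMSO and 3745 to 4506 CPM with PF-9363. Of the 12 mast cell and basophil markers 11 rose, with sums of 1377 to 1772 and 5809 to 6985 CPM. Of 8 tested eosinophil markers 7 fell and 1 rose, with sums of 691 to 894 and 267 to 378 CPM. Of 3 tested megakaryocyte markers 2 rose and 1 fell, and the sum of the list went from 42.7 to 54.3 CPM with DMSO to 212 to 232 CPM with PF-9363. Of 9 tested stem and progenitor markers 5 rose and 2 fell (488 to 517 and 604 to 664 CPM). Erythroid markers (4.45 to 6.79 and 5.80 to 12.8 CPM) had 1 of 2 tested genes higher. The single tested B cell marker fell and the single tested T and NK cell marker rose. Of the 12 T and NK cell markers Cd3e, Cd3g, Cd8a, Klrb1c, Klrd1 and Tbx21 had no count in the second experiment. The part of these markers in the results on the granule genes was not tested.

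Up to 5 protein-coding genes on each side of each of the 10 were also followed, and 49 of the 84 were tested in the second comparison. Of these, 14 rose and 27 fell (median log2 fold change −0.52). Over all genes tested, 36.6% rose and 39.4% fell (median −0.04). On chromosome 10, Palm, between Prss57 and Prtn3, fell from 88.2 ± 4.74 to 8.37 ± 1.78 CPM (−3.41), and Ptbp1, a splicing factor, fell by 1.35. Plppr3 had −2.74, Fstl3 −3.58 and Rnf126 −1.32, of which Plppr3 and Fstl3 carry the overlap with Prtn3 and Prss57 given above. Near Mpo, Rnf43 (−3.88), Epx (−2.50) and Mks1 (−2.26) fell while Supt4a had 0.38. Near Ctsg, the mast cell proteases Mcpt1 (3.73), Mcpt2 (1.80) and Mcpt4 (1.70) rose, and Mcpt8, a basophil protease, had −0.14 and did not pass. Near Ms4a3, its relatives Ms4a6d (2.74), Ms4a6b (2.14) and Ms4a2 (1.95) rose and Oosp1 (−2.66) fell. Around the others, Serpinb9b (3.33), Rxra (1.27) and Olfm1 (1.20) rose, and Col5a1 (−2.21), Siglecf (−1.81), Gmds (−1.59), Siglecg (−1.43) and D930007J09Rik (−1.01) fell. In the first comparison 21 of 55 tested neighbours rose and 18 fell (median 0.07), beside 24.5% and 22.7% of all genes tested (median 0). Past 1 on the log2 scale were Stox1 near Srgn (1.53), 1700007K13Rik (−1.39) and Gbgt1 (−1.30) near Fcnb, Mcpt2 near Ctsg (−1.26) and Serpinb9b near Serpinb1a (−1.12). Of these, Stox1, 1700007K13Rik and Gbgt1 had group means between 0.117 and 1.42 CPM.

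**Figure D4:**
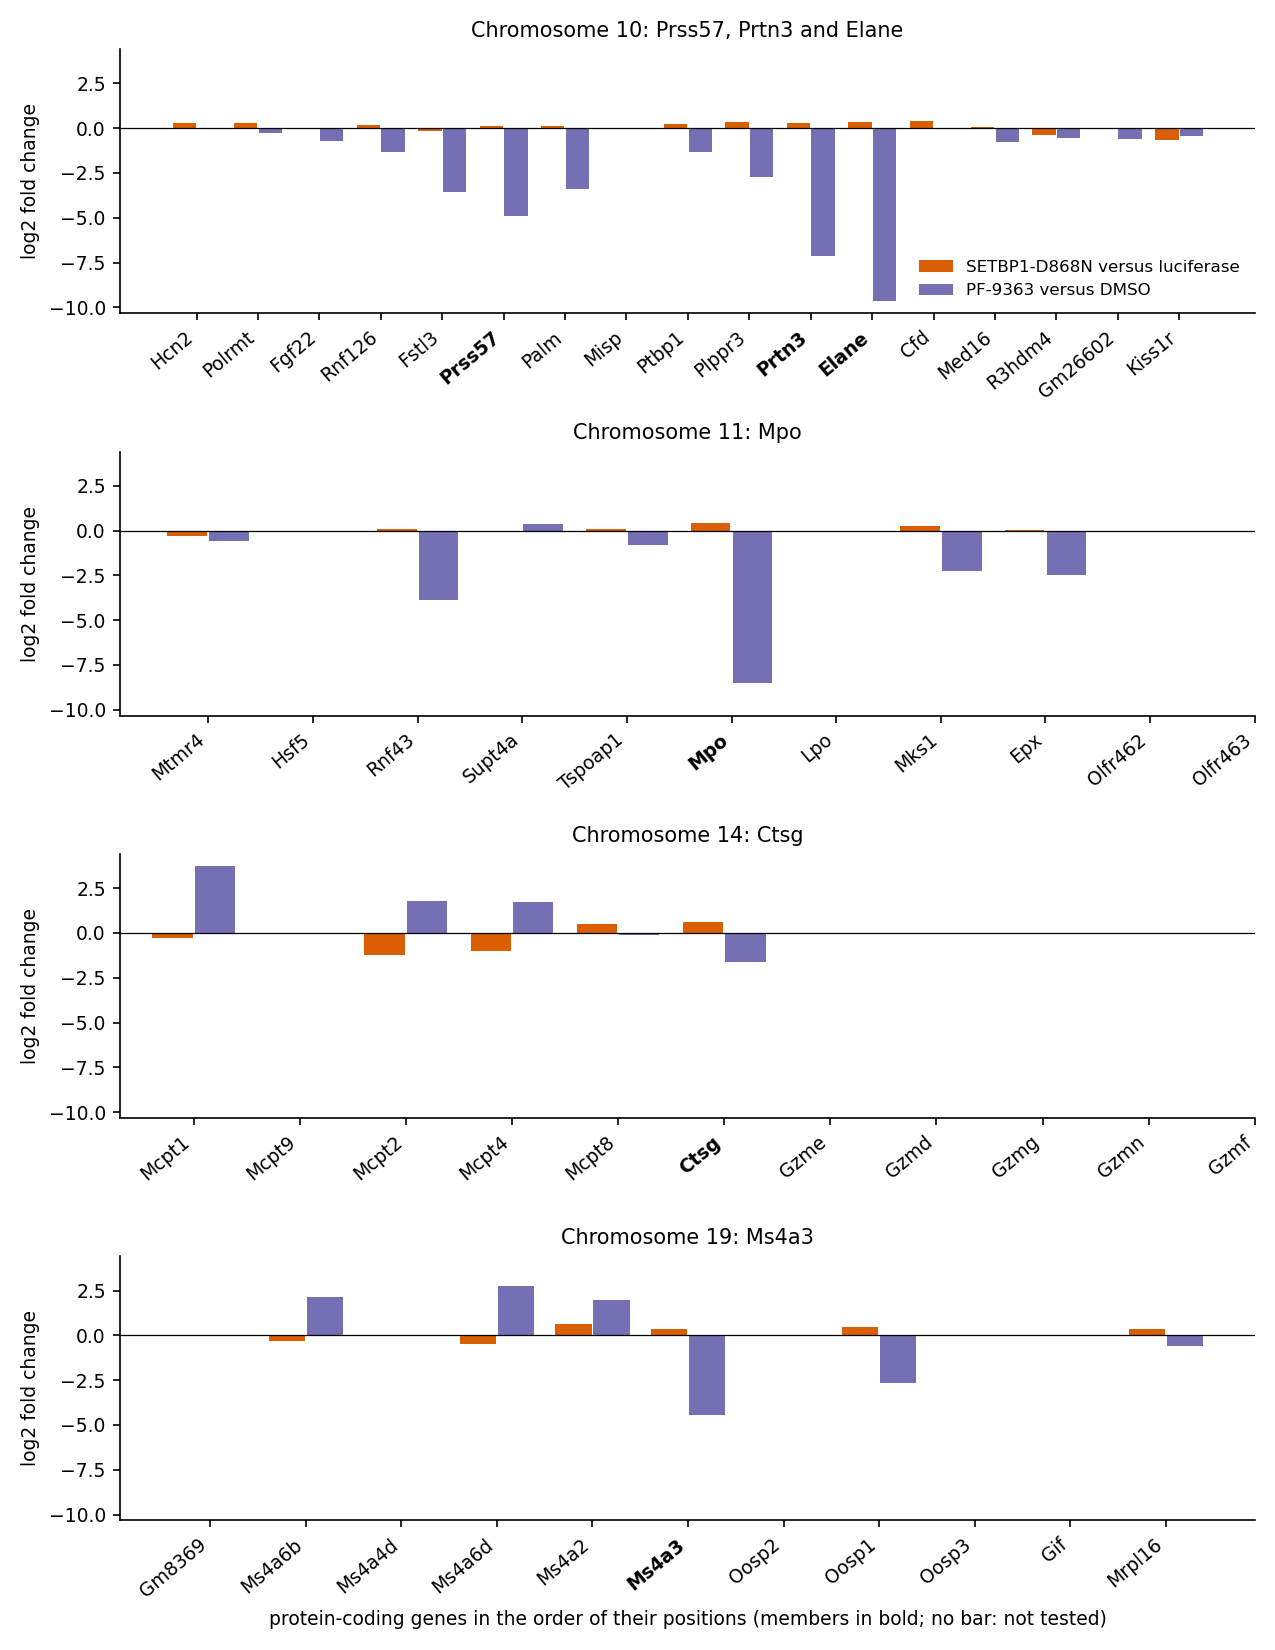
Log2 fold change of protein-coding genes in chromosome order around Prss57, Prtn3 and Elane, Mpo, Ctsg and Ms4a3 (names in bold), for SETBP1-D868N versus luciferase (orange) and PF-9363 versus DMSO (purple); genes without a bar were not tested, and bars are drawn whether or not they passed the test. Falls with PF-9363 around Elane (−9.66) include Palm (−3.41), while the genes near Ctsg (−1.63) and Ms4a3 (−4.47) include rises up to 3.73.

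For each of the 10, the nearest pattern was sought among 8784 other genes, tested in both experiments with a group mean of at least 10 CPM in each. Nearness was the smallest root mean square difference in log2 CPM over the 14 libraries, each centred on the control group of its experiment. Gm11505, at 0.787 and 0.982 CPM in the groups of the first experiment, was therefore not a candidate. Its log2 fold changes were 0.32 and −8.51, beside 0.40 and −8.49 for Mpo. Ak4, an adenylate kinase of mitochondria, was nearest to Fcnb (0.422), Prtn3 (0.761), Mpo (1.17) and Elane (1.81). Its level went from 160 ± 12.6 to 1.40 ± 0.618 CPM with PF-9363. For Mpo, Elane and Prtn3 the likeness lies in the second experiment, since Ak4 had −0.37 in the first while these 3 rose. Ndrg2 was nearest to Nkg7 (0.162) and Prss57 (0.282), Cdca7l to Ms4a3 (0.202) and Dkc1, the pseudouridine synthase dyskerin, to Ctsg (0.112). Tomm70a, a receptor for import into mitochondria, was nearest to Srgn (0.0474) and Usf1, a transcription factor, to Serpinb1a (0.0730).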

How the data were processed

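Polyadenylated RNA was sequenced in 14 libraries in 2 experiments. Raw counts for each gene symbol were deposited by the authors in 1 table per experiment, per the labels. The submitters' processing notes name STAR, DESeq2, GRCm38 and mm10, and the counting program and strand handling are not given in the sources used here. Per the labels' protocols, the experiments differed in RNA input (500 and 100 ng) and library preparation, so each was fitted alone. Everything else was computed here with edgeR 4.0.16 in R 4.3.3: filterByExpr (minimum count 10, minimum total 15), TMM scaling, robust quasi-likelihood test, and Benjamini-Hochberg adjustment over all genes tested, with calls at 0.05. The SE is the absolute log2 fold change over the square root of F. It is derived from the test and can be too small where a group holds few counts. Exon lengths and overlaps came from GENCODE M21.

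The 10 genes and all lists were chosen with earlier results of these data known. Named from each list were the 2 genes with the largest called change per direction at 5 CPM or more in the higher group, all regulators, and called neighbours over 1 on the log2 scale. Further neighbours, Gm11505 and Lyz2 with PF-9363 were named after their values were seen. Alternatives were RLE and library-size scaling, no filter, DESeq2 1.42.0, a replicate block and leaving out each library.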

Additional observations from a re-analysis of the deposited data

How the results depend on the processing

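None of the 10 genes changed direction under any of their 240 alternatives, and 236 kept their call. The exceptions were Serpinb1a and Prss57 in the first comparison. The number of the 10 called lower there became 2 with DESeq2, and it was 1 to 2 when single libraries were left out. Scaling by library size alone shifted the median of all genes by 0.05 in the first comparison and by −0.23 in the second, on the log2 scale. Over all genes it gave 4905 higher and 2997 lower, against 3869 and 3579, in the first, and 3775 and 6653, against 4921 and 5307, in the second. Under it, 5 secondary and tertiary granule genes and 1 of the granzymes and mast cell proteases were lower in the second comparison. Without the expression filter these were 2 granzymes and mast cell proteases and 2 heme peroxidases. Leaving out single libraries gave 1 to 2 secondary and tertiary granule genes and 0 to 1 granzymes and mast cell proteases lower.

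Same-numbered libraries did not deviate together (r of −0.0968 to −0.0369 across genes in experiment 1 and −0.0402 to 0.00753 in experiment 2). These values gave no sign of pairing by number. With so few libraries per group and noisy low-count genes among those used, they cannot exclude it. With the replicate number as a block, 3416 genes were higher and 3224 lower in the first comparison and 4885 and 5239 in the second, and 1 gene of protease activation and granule traffic was lower in the first. The block changed no call among the 10. Low counts limit the second experiment: Elane and Fcnb with PF-9363 rest on 2 to 29 counts per library.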

Other observations

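The 2830 gene symbols that GENCODE M21 types as antisense, Gm11505 among them, held 0.0951% to 0.103% of the counts in the libraries of the first experiment. They held 1.58% to 1.61% in the DMSO libraries and 1.41% to 1.43% in the PF-9363 libraries. What sets this difference between the tables was not tested.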
